A study of Petunia x hybrida with 48 samples.

Results

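In petunia axillary buds, 200 of the 34301 genes in the table of the first phosphate experiment were already at a lower level in bud 3 than in bud 2, and stayed low in buds 6 and 7. They were chosen from these values. Each has a mean of at least 50 normalized counts over the 24 libraries of experiment 1 and, in both phosphate (P) treatments, a group mean plus 1 in each of buds 3, 6 and 7 that is at most 0.5 times that in bud 2. Of the 34301 genes, 19586 reached the mean of 50. Differences between buds in experiment 1 therefore describe the choice and were not tested, while experiment 3 had no part in it. All 200 genes are in the experiment 3 table, which holds 32830 genes, and 199 of them had the mean of at least 10 that was needed for a test. Over the 18 libraries of buds 3, 6 and 7 alone, 190 had that mean, so 9 passed through bud 2. For these 9 a lower mean over buds 3, 6 and 7 than in bud 2 was fixed in advance. The counts of genes that fell from bud 2 include them.

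The plants were *Petunia hybrida* inbred line V26 grown in hydroponics, with no mutant or transgene in any group. In experiment 1 the plants grew at high P (250 µM phosphate) and were moved for 24 h to fresh high P or to low P (5 µM) medium. In experiment 3 they grew at low P and were moved for 24 h to fresh low P or to high P, so its high P groups are plants given P again. Buds were cut from nodes 2, 3, 6 and 7, with node 1 just above the cotyledons, and each of the 8 groups of an experiment has 3 replicates, each a pool from 6 to 7 plants. The study grew fewer plants than separate pools would need, so pools of different buds share plants. The tests took the pools as unpaired, and p-values measure the spread between these pools.

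Axillary buds form in the leaf axils and either grow into branches or pause. A paused bud is alive but divides little, and its state depends on hormones, sugar and mineral supply and on its place along the stem. In petunia the lowest buds usually stay small while the upper ones grow out. Cytokinin promotes outgrowth, abscisic acid (ABA) is linked with the paused state, and phosphate shortage reduces branching. The genes described here mark what bud 3, next above the small bud 2, has less of. Gene names stand for the nearest annotated relative, mostly of Arabidopsis. Of the 200 genes, 140 have an annotation entry and 125 a description.

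Normalized counts summed to between 39733000 and 46382000 per library in experiment 1 and to between 82964000 and 95609000 in experiment 3, so low levels are better resolved in experiment 3. The 4 markers of dormant buds (DRM1, a related dormancy/auxin-associated gene, KMD1 and NAP) summed to 30026 to 34340 in bud 2 and 23681 to 37649 in bud 3 at high P of experiment 1, and to 4586 to 5543 in bud 6. The 5 markers of dividing cells (CDKB1, CDKB2 and cyclins) summed to 3095 to 5461 in bud 2, 2926 to 3480 in bud 3 and 18979 to 23880 in bud 6. On these 2 lists bud 3 of experiment 1 overlapped with bud 2. In high P of experiment 3 the dormancy list was at 33729 to 39658 in bud 2 and 9450 to 19954 in bud 3, and the division list at 18289 to 18700 and 28447 to 47245, so that there bud 3 did not overlap with bud 2. The 2 shoot epidermis markers (PDF1) summed to 11208 to 16075 in bud 2, 18269 to 27073 in bud 3 and 78232 to 83387 in bud 6 at high P of experiment 1, and to 16983 to 19544 in bud 2 and 126673 to 148893 in bud 3 at high P of experiment 3. The 6 cambium and xylem markers were at 6894 to 15813 in bud 2 and 3800 to 5178 in bud 3 of that treatment, and the 8 green leaf markers at 50381 to 61907 and 116144 to 202286. Within the green leaf list RCA1 went the other way, with means of 5532 in bud 2 and 2412 in bud 3, while the others rose. No marker had a group mean of 0 and none is among the 200 genes. In experiment 1 these 2 lists did not follow that order in each treatment. The cambium list was at 1672 to 2760 in bud 2 and 1405 to 1677 in bud 3 at high P and at 1520 to 1992 and 2241 to 2712 at low P, and the green leaf list at 122267 to 168752 and 95962 to 170752 at high P, which overlapped. The cambium markers of experiment 1 did not move together. WOX4 had means of 982 in bud 2 and 401 in bud 3 at high P and 707 and 445 at low P. CESA4 had 484 and 537 at high P and 491 and 960 at low P. All cambium markers but WOX4 rose at low P, and at high P they went both ways. The part of these lists in the differences between buds was not tested. Fewer cells of a type and less RNA per cell cannot be told apart in whole buds. Low P bud 3 replicate 3 of experiment 3 stood apart, with dormancy markers at 45709 against 11274 and 13527 in the other 2 replicates and division markers at 10299 against 42554 and 29000. The counts and medians that rest on it are given with and without it.

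In experiment 1 the loss came in steps along the stem. At high P a gene of this set kept a median of 36.0% of its bud 2 level in bud 3, 3.1% in bud 6 and 3.65% in bud 7. At low P the medians were 33.0%, 3.29% and 2.90%. Over all genes tested the medians lay between 95.8% and 99.9%. In bud 6 at high P, 146 of the 200 genes were under 10% of bud 2, against 14 of them in bud 3. In 75 genes the bud 6 mean was below 10 normalized counts in both treatments, so the level there was near the limit of detection. By library, the median of log2(value + 1) minus the bud 2 mean was -0.97, -1.98 and -1.76 in high P bud 3, -2.01, -1.94 and -1.15 in low P bud 3, and between -4.62 and -5.42 in high P bud 6. High P bud 3 replicate 1 was nearest to bud 2 among these libraries. With the high P replicate 1 libraries left out, the same rule would take 309 genes, 194 of the 200 among them. Closest to the threshold on the inside were Scf00695g00009.1, Scf00875g00113.1 and Scf00783g00131.1, with largest ratios to bud 2 of 0.497, 0.498 and 0.499967. Just outside lay Scf00668g00119.1, a pyruvate dehydrogenase kinase, at 0.500261, Scf00305g01117.1 at 0.501, and Scf00115g00132.1, a kiwellin, at 0.505.

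**Figure D1:**
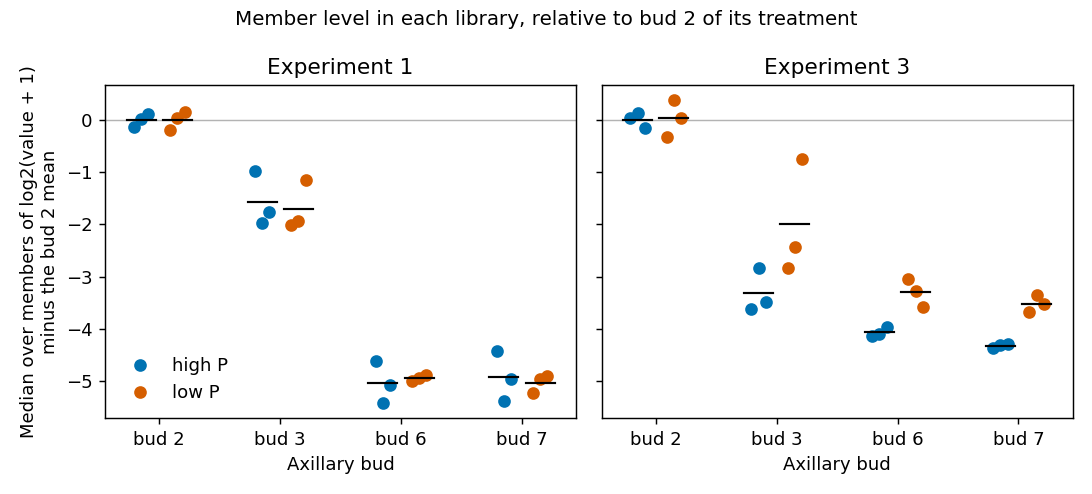
Median over the genes of the set of log2(normalized count + 1) minus the mean of bud 2 in the same treatment, 1 point per library and a bar for the mean of 3, for buds 2, 3, 6 and 7 of experiment 1 (200 genes) and experiment 3 (199 genes). Bud 3 lay between buds 2 and 6 in experiment 1, came close to bud 6 at high P of experiment 3, and 1 low P bud 3 library of experiment 3, at -0.75, stayed near bud 2.

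Experiment 3 asked whether the same genes separate bud 3 from bud 2 in other plants. At high P, 194 of the 199 genes fell from bud 2 to bud 3 by more than 2-fold at adjusted p below 0.05 (limma, Benjamini-Hochberg over 22584 genes), where 17.5% of all genes tested did so, and none rose, where 12.3% of all genes did. Their median log2 difference was -3.36 against -0.04 over all genes tested. From bud 2 to bud 6, 196 fell and none rose, where 18.8% and 13.1% of all genes did, with a median of -4.05, and to bud 7, 196 fell and none rose, where 19.3% and 13.4% did, with a median of -4.32. At low P, 174 fell and 1 rose from bud 2 to bud 3, against 8.97% of all genes lower and 7.78% higher, with a median of -2.00. Without replicate 3 of low P bud 3 these were 187 lower and 1 higher, against 16.0% and 14.6%, with a median of -2.56. The low P bud 3 count rests on the spread shared by all 24 libraries. Fitted on the 6 libraries of low P buds 2 and 3 alone it was 0 (with 164 at an unadjusted p under 0.05), with precision weights per library it was 8 (88 unadjusted), and without replicate 1 or replicate 2 of low P bud 3 it was 82 or 116. In low P bud 6, 187 fell and 1 rose, where 13.4% and 12.6% of all genes did, and in bud 7, 191 fell and 1 rose, where 16.5% and 13.5% did. The 3 comparisons of a treatment share its bud 2 libraries.

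At high P the share of the bud 2 level kept in bud 3 had a median of 36.0% in experiment 1 and 10.1% in experiment 3, and at low P of 33.0% and 30.4%, or 16.6% without low P bud 3 replicate 3. The tables were normalized separately and the plants had different histories, so these shares were not tested against each other. By library the median log2 difference from bud 2 was -3.62, -2.83 and -3.48 in high P bud 3 of experiment 3, and -2.82, -2.42 and -0.75 in low P bud 3. Replicate 3 gave the last of these values, and the other 5 libraries lay lower than any bud 3 library of experiment 1. In bud 6 the median share kept was 6.08% at high P and 9.57% at low P, and in bud 7 it was 5.19% and 8.50%.

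**Figure D2:**
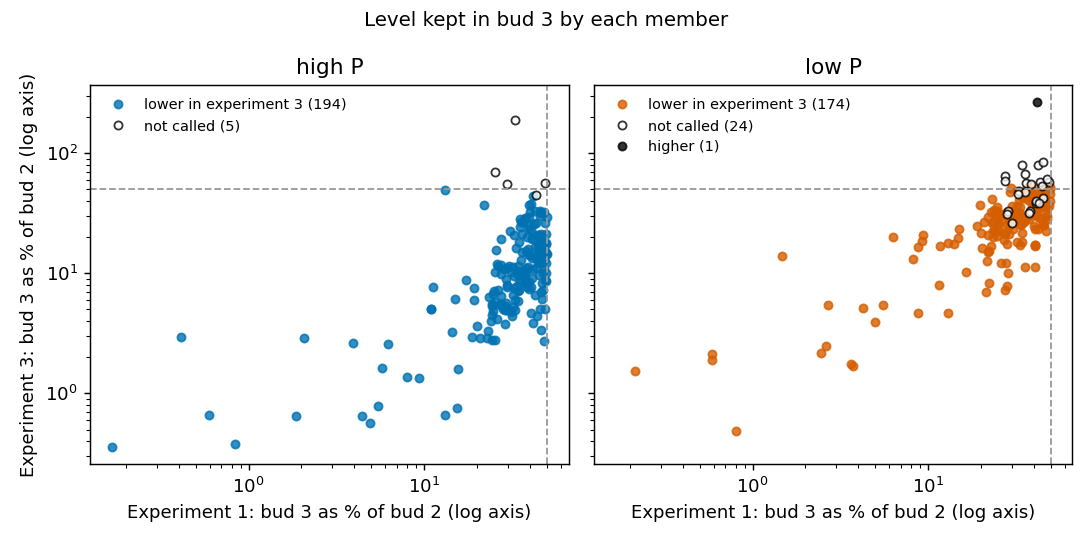
Level kept in bud 3 as a percentage of bud 2 (group mean plus 1, log axes) in experiment 1, on the horizontal axis, and in experiment 3, on the vertical axis, for each of 199 genes at high P (left) and low P (right). Filled points were lower in bud 3 of experiment 3 (194 at high P and 174 at low P), open points were not called and the black point rose, and dashed lines mark 50%. Nearly all points at high P lie below 50% on the vertical axis, which had no part in the choice.

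Few genes of the set went another way. Not called at high P were Scf00034g01013.1, Scf00045g01313.1, Scf00194g00817.1, Scf00194g00818.1 and Scf00404g00058.1 in bud 3, Scf00045g01313.1, Scf00784g00035.1 and Scf00985g00422.1 in bud 6, and Scf00014g02735.1, Scf00045g01313.1 and Scf00985g00422.1 in bud 7. Scf00045g01313.1, a lipid-transfer family gene, was called lower in none of the 6 comparisons with bud 2. It had 109, 160 and 614 normalized counts in high P bud 2 of experiment 1 and 61.5, 73.0 and 155 in bud 3. In the experiment 3 table it had 74.4, 80.1 and 36.2 in high P bud 2, 2.05, 13.1 and 9.32 in low P bud 2 and 72.5, 28.96 and 35.7 in low P bud 6. The order of its buds at low P was thus turned over, with every bud 6 library above every bud 2 library. Its low P difference from bud 2 was 1.45 ± 0.54 (SE, log2) in bud 3 (adjusted p = 0.0359, and 1.88 at adjusted p = 0.0077 without replicate 3) and 2.50 ± 0.54 in bud 6 (adjusted p = 0.000981). Scf00985g00422.1, with no description, had 1785, 2857 and 4620 in high P bud 2 and 671, 477 and 451 in bud 6 of experiment 1. Experiment 3 libraries gave it 9174, 5605 and 8544 in high P bud 2 and 9572, 3364 and 8224 in bud 6, and these ranges overlapped. The gene left untested, Scf00160g01112.1, had 2120, 1676 and 1900 in high P bud 2 of experiment 1 and 18.4, 9.94 and 3.17 in experiment 3.

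Genes linked to wall oxidation had the lowest median of all lists in bud 3 at high P of experiment 3, though not in bud 6. Class III peroxidases and laccases couple monolignols into lignin, and blue copper proteins such as uclacyanins sit in the same walls. All 9 genes of this list fell in bud 3 and in bud 6 at high P of experiment 3, with median log2 differences of -5.72 and -7.67. Other genes of each list come from a table of genes that differed on these same samples. Of 31 such genes of this list, 25 fell and 5 rose in bud 3. The 3 genes named PRX72, after a lignin peroxidase of Arabidopsis, sit on 1 scaffold, so that reads may be split among near-identical copies and their single levels are uncertain. Scf00418g01014.1 had 12959, 15832 and 11965 normalized counts in high P bud 2 of experiment 1, 2542, 2299 and 1003 in bud 3 and 3.78, 14.6 and 7.35 in bud 6. In high P of experiment 3 it had 17326, 19142 and 12905 in bud 2, 98.8, 1266 and 230 in bud 3 and 0, 12.5 and 19.5 in bud 6. Each step of experiment 3 separated the libraries with no overlap. The log2 difference from bud 2 was -5.72 ± 1.26 in bud 3 (adjusted p = 0.000897) and -11.28 ± 1.26 in bud 6 (adjusted p = 3.3e-06). The copies Scf00418g01015.1 and Scf00418g00927.1 differed by -7.29 ± 1.14 and -4.29 ± 0.62 in bud 3 (adjusted p = 8.5e-05 and 5.4e-05).

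LAC5 (Scf00284g00315.1), a laccase, had 93.9, 519 and 84.7 in high P bud 2 and 1.03, 4.91 and 5.61 in bud 3 of experiment 1. In experiment 3 it had 2351, 3459 and 3277 in high P bud 2 and 3.37, 250 and 6.79 in bud 3, of which replicate 2 alone exceeded 10. That difference was -7.19 ± 1.23 (adjusted p = 0.000153). PRX52 (Scf00284g00022.1), another lignin peroxidase of Arabidopsis, had 3197, 3218 and 2387 in high P bud 2, 106, 429 and 139 in bud 3 and 73.4, 78.3 and 125 in bud 6 of experiment 3, and differed by -3.97 ± 0.55 in bud 3 (adjusted p = 4.2e-05).

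Of 10 genes of wall barriers and surface layers, 9 fell in bud 3 at high P of experiment 3 and the lipid-transfer gene above did not, with a median of -4.47. Of 37 other tested genes of this list, 22 fell and 6 rose. Dirigent proteins steer the coupling of phenols into lignans and lignin. Dirigent protein 6 (Scf00074g01513.1) had 2800, 1869 and 2887 in high P bud 2, 1835, 866 and 443 in bud 3 and 49.8, 12.2 and 19.3 in bud 6 of experiment 1. In the experiment 3 table it had 3524, 3580 and 2607, 33.5, 295 and 40.04 and 45.1, 39.2 and 60.1, so that bud 3 had reached the level of bud 6 in 2 of 3 libraries. It differed by -5.42 ± 0.73 in bud 3 (adjusted p = 3.6e-05), and its scaffold neighbour Scf00074g10153.1 by -3.34 ± 0.55 (adjusted p = 0.000116). On scaffold Scf00241 lie 4 genes of the set, 3 of them of the lipid-transfer family, whose reads may also be split. Of these, Scf00241g00032.1 had 2690, 4642 and 4406 in high P bud 2, 129, 282 and 171 in bud 3 and 612, 361 and 381 in bud 6 of experiment 3, and its bud 3 libraries were the lowest. The difference from bud 2 was -4.36 ± 0.46 (adjusted p = 8.0e-06), and that of Scf00241g10024.1 was -4.59 ± 0.42 (adjusted p = 5.3e-06).

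All 9 genes of wall polysaccharides and wall glycoproteins fell in bud 3 at high P of experiment 3, with a median of -3.51, and of 69 other tested genes of this list 37 fell and 11 rose. A tyrosine- and hydroxyproline-rich glycoprotein (Scf00323g00521.1), a structural wall protein, had 53876, 53458 and 47591 in high P bud 2, 33278, 17711 and 17417 in bud 3 and 641, 335 and 584 in bud 6 of experiment 1. Experiment 3 libraries gave it 86996, 94090 and 85848 in high P bud 2 and 2402, 5842 and 3640 in bud 3. The difference in bud 3 was -4.58 ± 0.60 (adjusted p = 3.1e-05), with the 2 sets of libraries far apart. A glucan endo-1,3-beta-glucosidase (Scf01114g00012.1), of the enzymes that cut callose, kept more. It had 39733, 45970 and 36373 in bud 2, 7525, 9847 and 7242 in bud 3 and 17426, 11483 and 10108 in bud 6, and differed by -2.32 ± 0.28 in bud 3 (adjusted p = 1.9e-05). A xyloglucan endotransglucosylase/hydrolase (Scf00111g00022.1), which cuts and rejoins xyloglucan, differed by -4.59 ± 0.80 (adjusted p = 0.000177). PLL18 (Scf00420g00140.1), related to pectate lyases, differed by -3.12 ± 0.44 in bud 3 and -1.82 ± 0.44 in bud 6 (adjusted p = 4.5e-05 and 0.00149).

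The 3 flavonoid genes of the set all fell in buds 3, 6 and 7 at high P of experiment 3. Of 13 other tested flavonoid genes, 5 fell and 5 rose in high P bud 3. CHSB (Scf00164g00313.1), a chalcone synthase at the entry to the pathway, had 2447, 4704 and 4541 in high P bud 2, 730, 396 and 412 in bud 3 and 0, 0 and 1.02 in bud 6 of experiment 1. In experiment 3 it had 1934, 1970 and 677 in high P bud 2 and 0, 20.7 and 6.79 in bud 3, a difference of -7.96 ± 0.91 (adjusted p = 1.3e-05). TT7 (Scf00973g00025.1), the flavonoid 3'-hydroxylase of Arabidopsis, had 1184, 1349 and 1037 in bud 2, 94.4, 99.9 and 89.1 in bud 3 and 4.73, 17.1 and 25.97 in bud 6. These are 3 separate levels, with bud 3 between the others, and the bud 3 difference was -3.63 ± 0.60 (adjusted p = 0.000124). BAN (Scf00218g00415.1), related to anthocyanidin reductase, had 4127, 4373 and 3821 in bud 2 and 719, 699 and 559 in bud 3, and differed by -2.64 ± 0.20 (adjusted p = 1.3e-06). The 2 sets of libraries were tight and far apart.

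**Figure D3:**
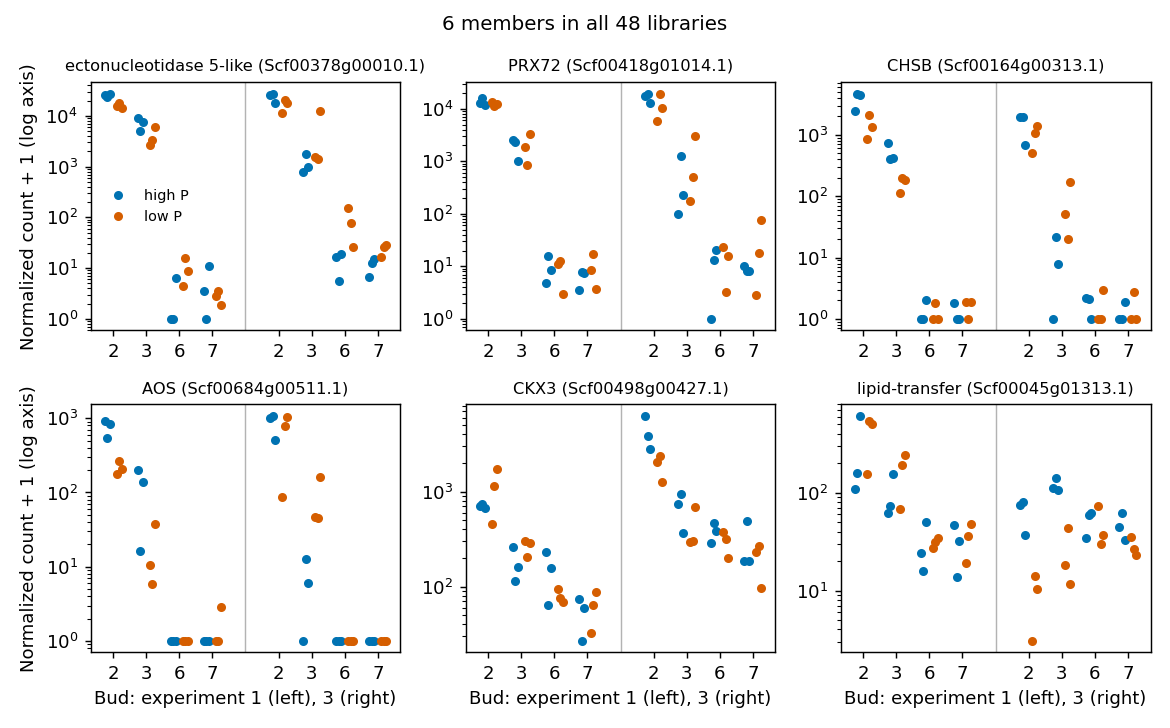
Normalized count + 1 on a log axis in all 48 libraries for 6 genes of the set, with buds 2, 3, 6 and 7 of experiment 1 to the left and of experiment 3 to the right in each panel, 1 point per library coloured by treatment. The ectonucleotidase, PRX72, CHSB and AOS fall through bud 3 to means below 10 in bud 6 of experiment 1. In experiment 3 they are also lower in buds 6 and 7 than in bud 2. CKX3 falls less, and the lipid-transfer gene falls in experiment 1 but not in experiment 3.

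The set holds 4 genes of enzymes that release phosphate from organic compounds, and all 4 fell in buds 3, 6 and 7 at high P of experiment 3. Among 39 other tested genes of this list, 14 fell and 3 rose in high P bud 3. A gene matched to ectonucleoside triphosphate diphosphohydrolase 5 (Scf00378g00010.1), of the family that strips phosphate from nucleotides, had 25752, 23721 and 27480 in high P bud 2, 9144, 5072 and 7526 in bud 3 and 0, 0 and 5.29 in bud 6 of experiment 1. In the experiment 3 table it had 25858, 26722 and 18038, 780, 1776 and 995 and 15.4, 4.55 and 18.2. It differed from bud 2 by -4.38 ± 0.70 in bud 3 and -10.91 ± 0.70 in bud 6 (adjusted p = 1.0e-04 and 2.9e-08). PAP27 (Scf00046g00119.1), a purple acid phosphatase, had 7510, 6128 and 6352 in high P bud 2 and 136, 275 and 337 in bud 3 of experiment 3, a difference of -4.83 ± 0.53 (adjusted p = 1.0e-05). The acid phosphatases of the HAD family, Scf00207g01227.1 and Scf00033g03015.1, differed by -4.47 ± 0.80 and -5.29 ± 0.87 in bud 3 (adjusted p = 0.000212 and 0.000122).

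The list of genes that set the levels of growth hormones had the median nearest to 0 of all lists. It does not hold Scf00312g00310.1, matched to a gene of gibberellin synthesis. That gene was sorted under specialised metabolism and fell by more than this median in high P bud 3 of experiment 3. A pair of cytokinin dehydrogenases, a methyl esterase and a gibberellin 2-oxidase make up the growth hormone list, and all 4 fell in bud 3 and bud 6 at high P of experiment 3, with medians of -1.63 and -2.10. Of 28 other tested genes of cytokinin, auxin and gibberellin, 9 fell and 9 rose in high P bud 3. CKX3 (Scf00498g00427.1), which breaks down cytokinin, had 704, 732 and 662 in high P bud 2, 261, 114 and 159 in bud 3 and 230, 63.6 and 157 in bud 6 of experiment 1. Experiment 3 libraries gave it 6289, 3826 and 2832, 734, 941 and 366 and 285, 469 and 387, and it differed by -2.69 ± 0.48 in bud 3 (adjusted p = 0.000208). CKX5 (Scf00189g00922.1), of the same function, was uneven in experiment 1, at 350, 230 and 2539 in high P bud 2, 318.0, 74.6 and 288 in bud 3 and 537, 130 and 460 in bud 6. The replicates there overlapped, and replicate 3 raised the bud 2 mean. In experiment 3 CKX5 had 3290, 3906 and 3739 in high P bud 2 and 1601, 1556 and 886 in bud 3, which did not overlap, and differed by -1.48 ± 0.35 (adjusted p = 0.0014). MES17 (Scf00304g00714.1), whose Arabidopsis relative frees auxin from its methyl ester, differed by -1.43 ± 0.23 (adjusted p = 0.000118), and GA2OX8 (Scf00678g00019.1), which inactivates gibberellin precursors, by -1.77 ± 0.54 (adjusted p = 0.00808). At low P, CKX3 and CKX5 fell in bud 3, by -2.21 ± 0.48 and -2.15 ± 0.35 (adjusted p = 0.00356 and 0.000672), while MES17 and GA2OX8, at -0.98 and -1.07 (adjusted p = 0.00538 and 0.107), were not called. Without low P bud 3 replicate 3 all 4 were called, at -2.62, -2.07, -1.04 and -1.92.

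Of 8 genes linked to ABA, ethylene and jasmonate, all fell in buds 3 and 6 in high P of experiment 3, with medians of -3.69 and -4.998, and 23 of 46 other tested genes of these hormones fell and 6 rose in bud 3. AOS (Scf00684g00511.1), allene oxide synthase at the start of the jasmonate branch, had 917, 533 and 847 in high P bud 2 and 200, 15.1 and 137 in bud 3 of experiment 1 and was listed at 0 in all 3 bud 6 libraries. In experiment 3 it had 1020, 1084 and 510 in high P bud 2 and 0, 11.7 and 5.09 in bud 3, and was again at 0 in bud 6 in every library. The bud 3 difference was -7.60 ± 0.83 (adjusted p = 9.2e-06), and the adjusted p for bud 6 was 4.0e-07. OPR2 (Scf00970g00114.1), a 12-oxophytodienoate reductase, had 583, 460 and 181 in high P bud 2 and 3.37, 9.01 and 4.24 in bud 3, a difference of -5.90 ± 1.08 (adjusted p = 0.000246). RD22 (Scf00799g00518.1), which ABA and drought raise in Arabidopsis, had 2948, 1506 and 851 in bud 2, 134, 387 and 54.3 in bud 3 and 60.3, 40.9 and 36.4 in bud 6. Its bud 3 values spread widely but stayed below all of bud 2, and it differed by -3.45 ± 0.67 (adjusted p = 0.000356). The ABA 8'-hydroxylase 1 gene Scf00053g00315.1, of ABA breakdown, had 481, 422 and 338 in high P bud 2 and 30.3, 29.7 and 13.6 in bud 3, and differed by -4.09 ± 0.64 (adjusted p = 8.5e-05).

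ACO5 lay lower in each bud 3 library than in any bud 6 library, though the difference was not called. It (Scf00066g00009.1) encodes an ACC oxidase, the last enzyme of ethylene synthesis, and had 263, 315 and 114.6 in high P bud 2, 6.74, 28.8 and 11.04 in bud 3 and 57.99, 35.2 and 44.2 in bud 6 of experiment 3. Bud 3 held the lowest values of the 3 positions, and its difference from bud 2 was -3.92 ± 0.90 (adjusted p = 0.0012) against -2.21 ± 0.90 in bud 6 (adjusted p = 0.0374). Bud 6 minus bud 3 was 1.71 ± 0.90 and was not called (adjusted p = 0.514). The ethylene response factor 189 gene (Scf01094g00002.1), named for a tobacco regulator of nicotine synthesis, differed by -2.69 ± 0.47 in bud 3 (adjusted p = 0.000179).

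All 8 transcription factor genes fell in buds 3 and 6 at high P of experiment 3, with medians of -3.07 and -3.61. Of 149 other tested transcription factor genes, 69 fell and 28 rose in bud 3. IBL1 (Scf00525g00089.1), related to a growth-limiting protein of Arabidopsis, had 1493, 1480 and 1532 in high P bud 2, 350, 386 and 368 in bud 3 and 205, 301 and 281 in bud 6, and differed by -2.03 ± 0.35 in bud 3 (adjusted p = 0.000157). NLP6 (Scf00102g00189.1), of the family that reads nitrate, had 567, 626 and 673 in high P bud 2 and 49.5, 72.8 and 29.7 in bud 3, a difference of -3.68 ± 0.72 (adjusted p = 0.000393). LSH10 (Scf00111g01424.1), of a family at organ boundaries, differed by -4.82 ± 0.61 (adjusted p = 2.6e-05). The MADS-box genes Scf00017g03265.1 and Scf00688g00218.1 differed by -2.62 ± 0.49 and -3.19 ± 0.45 (adjusted p = 0.000299 and 4.7e-05). AHL20 (Scf00024g00161.1), an AT-hook protein, was at 0 in high P bud 6 of experiment 1 in all 3 libraries, after 269, 184 and 317 in bud 2 and 81.1, 38.05 and 74.4 in bud 3.

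All 8 transporter genes also fell in bud 3 and in bud 6 at high P of experiment 3, with medians of -2.92 and -3.68, while of 150 other tested transporter genes 75 fell and 23 rose in bud 3. The major facilitator gene Scf00245g00710.1, of sugar and other solute carriers, had 4176, 4562 and 5794 in high P bud 2, 1653, 807.3 and 1780 in bud 3 and 46.02, 10.03 and 6.32 in bud 6 of experiment 1, and differed by -4.43 ± 0.70 in bud 3 of experiment 3 (adjusted p = 8.7e-05). KAT3 (Scf00827g00011.1), a regulatory subunit of potassium channels in Arabidopsis, had 1417, 1053 and 916 in bud 2 and 218.2, 211 and 120 in bud 3, a difference of -2.64 ± 0.53 (adjusted p = 0.000438). The major facilitator genes Scf00402g00940.1 and Scf00875g00113.1 differed by -3.10 ± 0.49 and -1.77 ± 0.23 (adjusted p = 8.8e-05 and 2.7e-05). Scf00875g00113.1 is the gene at the edge of the choice.

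All 13 genes of defence proteins fell in buds 3 and 6 at high P of experiment 3, with medians of -4.68 and -6.66. Of 33 other tested genes of this list, 20 fell and 5 rose in bud 3. Polyphenol oxidases turn phenols into quinones, and 2 such genes lie on scaffold Scf00445. Scf00445g00092.1 had 26407, 24772 and 23225 in high P bud 2, 16008, 4618 and 5750 in bud 3 and 5598, 3336 and 2817 in bud 6 of experiment 1 and kept a high level in bud 6. It differed by -2.96 ± 0.40 in bud 3 of experiment 3 (adjusted p = 3.4e-05). Scf00445g00064.1 had 2175, 285 and 615 in high P bud 2 of experiment 1 and 1.03, 0 and 1.11 in bud 3, or 0.167% kept with 1 added to each mean. A chitinase-like gene (Scf00347g00420.1) had 3944, 3439 and 3492 in high P bud 2 and 239, 437 and 132 in bud 3 of experiment 3, a difference of -3.91 ± 0.55 (adjusted p = 4.5e-05). At the other end, KTI1 (Scf00643g00055.1), a Kunitz trypsin inhibitor, had 3069, 2134 and 2072 in bud 2, 804, 1062 and 864 in bud 3 and 917, 1120 and 1111 in bud 6, and differed by -1.40 ± 0.27 in bud 3 (adjusted p = 0.00035). The disease resistance genes Scf00034g00176.1 and Scf00014g02735.1, of the class that detects pathogen proteins, differed by -4.53 ± 0.66 and -1.79 ± 0.34 (adjusted p = 5.3e-05 and 0.000308).

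Among the values used for the choice, which only describe it, the steepest early losses lay in few kinds of gene. In bud 3 of experiment 1, 13 genes were under 10% of bud 2 in both treatments, of which 11 have a description. Of these 11, 5 are germin-like or cupin genes, the germins being wall proteins, on scaffolds Scf00015, Scf00194 and Scf01000. Another 3 are peroxidases, 1 is the laccase LAC5, 1 a HAD acid phosphatase and 1 a polyphenol oxidase. GLP2 (Scf01000g00116.1) had 331, 634 and 304 in high P bud 2 and 30.1, 21.7 and 14.9 in bud 3 of experiment 1, and was listed at 0 in every bud 6 library of both experiments. In the experiment 3 table it had 2234, 4384 and 1222 in high P bud 2 and 1.12, 57.7 and 0 in bud 3, a difference of -8.84 ± 1.23 (adjusted p = 4.3e-05). Its neighbour GER2 (Scf01000g00115.1) may share reads with it and differed by -8.12 ± 0.85 (adjusted p = 8.0e-06). The cupin Scf00194g01046.1 had 3218, 5830 and 1760 in high P bud 2 and 0, 53.2 and 5.10 in bud 3, a difference of -8.86 ± 1.31 (adjusted p = 5.8e-05). Replicate 2 held most of what remained in bud 3 for all 3 genes. In experiment 3 all 13 genes were under 3% of bud 2 in high P bud 3, a limit chosen after the values were seen. The lower quartile over the 199 genes there was 5.39%. In low P bud 3, with replicate 3 included, the 13 genes kept between 0.487% and 14.0%. The highest share was that of the HAD phosphatase Scf00033g03015.1, and PRX72 Scf00418g01015.1 kept 5.44%.

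The 18 genes of specialised metabolism all fell in buds 3 and 6 at high P of experiment 3, with medians of -3.58 and -3.74, where of 189 other tested genes 118 fell and 21 rose in bud 3. Scf00312g00310.1 is matched to CYP88A3, a cytochrome P450 of gibberellin synthesis in Arabidopsis. It had 11008, 16965 and 22662 in high P bud 2, 6352, 4952 and 8775 in bud 3 and 268, 73.7 and 127 in bud 6 of experiment 1, and differed by -3.63 ± 0.48 in bud 3 of experiment 3 (adjusted p = 3.3e-05). H6H (Scf00234g00412.1), named for a tropane alkaloid oxygenase of henbane, had 15452, 17254 and 13246 in bud 2, 745, 970 and 562 in bud 3 and 170, 107 and 157 in bud 6, with no overlap at either step, and differed by -4.36 ± 0.58 (adjusted p = 3.3e-05). BGLU46 (Scf00262g00035.1), a glucosidase of lignin precursors in Arabidopsis, differed by -2.50 ± 0.33 (adjusted p = 3.1e-05). The oxygenase Scf00078g00339.1 differed by -2.79 ± 0.36 in bud 3 and -2.04 ± 0.36 in bud 6 (adjusted p = 2.6e-05 and 0.000122).

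All 4 genes of proteolysis and signalling fell in buds 3 and 6 at high P of experiment 3, where of 247 other tested genes 108 fell and 39 rose in bud 3. A G-type lectin receptor kinase (Scf00560g00110.1) had 8958, 5864 and 6096 in high P bud 2, 5937, 1918 and 1275 in bud 3 and 21.5, 23.6 and 26.3 in bud 6 of experiment 1. Its bud 3 replicate 1 lay inside the range of bud 2. Experiment 3 libraries gave it 9648, 6483 and 8807 in bud 2 and 1125, 1536 and 655 in bud 3, and differed by -2.97 ± 0.50 (adjusted p = 0.000138). MC1 (Scf00073g01928.1), a metacaspase that promotes cell death in Arabidopsis, differed by -2.97 ± 0.62, the aspartic protease SAP2 (Scf00201g00342.1) by -3.27 ± 0.57 and the wall-associated kinase WAK3 (Scf01022g00326.1) by -3.85 ± 0.55 (adjusted p = 0.000611, 0.000171 and 4.8e-05). Among 27 further described genes, all fell in buds 3 and 6 at high P, with medians of -2.88 and -3.48. The difference nearest to 0 there was that of ATB2 (Scf00286g00646.1), an oxidoreductase, at -1.18 ± 0.28 in bud 3 and -1.11 ± 0.28 in bud 6 (adjusted p = 0.00152 and 0.00213). GEX1 (Scf00120g00813.1), named for an Arabidopsis gamete protein, differed by -1.24 ± 0.29 in bud 6 (adjusted p = 0.00113). Of 74 tested genes with no description, 70 fell in bud 3 and 72 in bud 6.

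In low P bud 3 of experiment 3, where 8.97% of all genes fell, most genes of each list but that of growth hormones fell. All 9 genes of wall oxidation fell (median -4.03), as did all 8 of ABA, ethylene and jasmonate (-2.78), all 3 flavonoid genes (-1.75), all 4 of phosphate release (-2.68), all 8 transcription factors (-1.78), all 18 of specialised metabolism (-1.83) and all 4 of proteolysis and signalling (-2.00). Of the others, 8 of 9 wall polysaccharide genes, 9 of 10 wall barrier genes, 12 of 13 defence genes, 6 of 8 transporters and 2 of 4 growth hormone genes (median -1.61) fell. Of the other tested genes, 15 of 31 of wall oxidation fell, 14 of 46 of ABA, ethylene and jasmonate, 0 of 13 flavonoid genes while 5 rose, 7 of 39 of phosphate release, 52 of 149 transcription factors, 62 of 189 of specialised metabolism and 72 of 247 of proteolysis and signalling. In the remaining lists 22 of 69 of wall polysaccharides, 17 of 37 of wall barriers, 13 of 33 of defence, 49 of 150 transporters and 5 of 28 of growth hormones fell. Without low P bud 3 replicate 3 all 8 transporters and all 4 growth hormone genes fell, and the counts of the other lists named here were unchanged. The medians were then -5.14 for wall oxidation, -3.09 for ABA, ethylene and jasmonate, -2.50 for flavonoids, -3.77 for phosphate release, -2.32 for transcription factors, -2.43 for specialised metabolism, -2.62 for proteolysis and signalling and -1.99 for growth hormones. That library held the highest value of the 3 for each gene that follows. PRX72 (Scf00418g01014.1) had 5731, 19360 and 10194 in low P bud 2 and 173, 501 and 2970 in bud 3, a difference of -4.03 ± 1.26 (adjusted p = 0.0172), or -5.14 without replicate 3 (adjusted p = 0.00231). The ectonucleotidase Scf00378g00010.1 had 11405, 20645 and 17958 and 1572, 1438 and 12291, a difference of -2.42 ± 0.70 (adjusted p = 0.0125), or -3.43 without it. The wall glycoprotein Scf00323g00521.1 had 37251, 131603 and 54528 and 3698, 4543 and 29688, a difference of -3.02 ± 0.60 (adjusted p = 0.00237), or -3.97 without it. With replicate 3 the bud 3 libraries lay below those of bud 2 for PRX72 and the glycoprotein, and overlapped with them for the ectonucleotidase.

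The 200 genes lie on 157 scaffolds, and 75 of them share 32 scaffolds, with 4 each on Scf00241 and Scf00695. Genes of 1 scaffold and family are not separate measurements where reads can be split.

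Few genes were called lower in bud 6 than in bud 3 in experiment 3, but their share was larger than that of all genes. Unadjusted p (limma) was under 0.05, in either direction, for 83 of 199 genes at high P. Of all genes tested, it was for 2485 of 22584. The low P numbers were 112 of 199 and 2205 of 22584, or 70 and 2803 without low P bud 3 replicate 3. A lack of calls thus does not show that bud 3 had reached the level of bud 6. At high P, 11 of 199 genes were lower in bud 6 than in bud 3 and 1 was higher, where 0.505% and 0.102% of all genes were, and the median was -0.75. The count of lower and higher genes together was 4 without high P bud 3 replicate 2, 6 on the 6 libraries of those 2 groups alone and 68 with precision weights. The ectonucleotidase Scf00378g00010.1 differed by -6.53 ± 0.70 (adjusted p = 0.000186), PRX72 Scf00418g01014.1 by -5.56 ± 1.26 (adjusted p = 0.0493), the HAD phosphatase Scf00207g01227.1 by -4.64 ± 0.80 (adjusted p = 0.00718) and TT7 by -2.76 ± 0.60 (adjusted p = 0.0422). The single gene higher in bud 6 was Scf00450g00216.1, with no description, which had 323, 372 and 128 in bud 2, 17.96, 23.4 and 27.2 in bud 3 and 144, 92.9 and 85.9 in bud 6 (log2 difference 2.17 ± 0.40, adjusted p = 0.0115). At low P, 31 genes were lower in bud 6 than in bud 3 and none higher, where 0.686% and 0.0399% of all genes were, with a median of -1.23. Without low P bud 3 replicate 3 the count was 16, and none was higher, where 0.283% and 0.093% of all genes were, with a median of -0.57. It was 87 without low P bud 3 replicate 1, 12 and 17 without low P bud 6 replicate 2 and 3, and 0 both on the 6 libraries alone and with precision weights. In experiment 1, 6 genes had a bud 6 mean above that of bud 3 in both treatments, which the choice allows.

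Withdrawal of P for 24 h gave no called gene of the set in any bud. In experiment 1 none of the 200 genes was called between low and high P in bud 2, 3, 6 or 7 (limma), where 0.0134%, 0.00447%, 0.00447% and 0.0% of all genes were. At an unadjusted p under 0.05 there were 6, 18, 18 and 10 of the 200, where 5.97%, 5.31%, 6.15% and 1.34% of all genes were. The medians of low minus high P were -0.12, -0.17, 0.10 and -0.03. CHSB had 2447, 4704 and 4541 in high P bud 2 and 851, 2071 and 1322 in low P bud 2, and AOS had 917, 533 and 847 and 177, 268 and 206. For both genes no library of low P reached any of high P, but adjusted p was 0.799 and 0.833.

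After P was given to P-starved plants, few genes of the set were called in bud 2 and more in buds 3, 6 and 7. At an unadjusted p under 0.05 there were 25, 78, 49 and 36 of 199 in buds 2, 3, 6 and 7. Of all genes 29.5%, 41.6%, 41.2% and 34.0% were, a larger share in each bud. Without low P bud 3 replicate 3 the bud 3 number was 31, where 22.8% of all genes were. In bud 2 of experiment 3, 3 genes were higher at high P and none lower, where 1.22% and 1.56% of all genes were, with a median of 0.43. These were the lipid-transfer gene Scf00045g01313.1, at 3.00 ± 0.54 (adjusted p = 0.00224), PMEI-PME32 (Scf00427g00114.1), a pectin methylesterase, at 2.33 ± 0.41 (adjusted p = 0.00178), and Scf00102g00118.1, with no known product. PMEI-PME32 had 579, 1170 and 753 in high P bud 2 and 178, 180 and 124 in low P bud 2, with no overlap. In bud 3, 46 genes were lower at high P and 1 was higher, where 4.95% and 2.86% of all genes were, with a median of -0.91. Without low P bud 3 replicate 3 these fell to 6 lower and 1 higher, where 1.36% and 0.261% of all genes were, with a median of -0.27, and all 7 were among the 47. The 47 became 14 and 17 without high P bud 3 replicate 1 and 3, 85 without low P bud 3 replicate 1, and 0 both on the 6 libraries of bud 3 alone and with precision weights. In bud 6, 25 were lower and 7 higher, where 5.76% and 1.83% were, and in bud 7, 12 were lower and 3 higher, where 3.04% and 1.31% were. The 32 of bud 6 became 21 and 18 without low P bud 6 replicate 1 and 2. The 15 of bud 7 became 3 and 6 without high P bud 7 replicate 1 and 3, 9, 3 and 9 without low P bud 7 replicate 1, 2 and 3, and 36 with precision weights. The 3 of bud 2 became 6 without low P bud 2 replicate 2, 17 with precision weights and 15 on the 6 libraries of bud 2 alone.

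**Figure D4:**
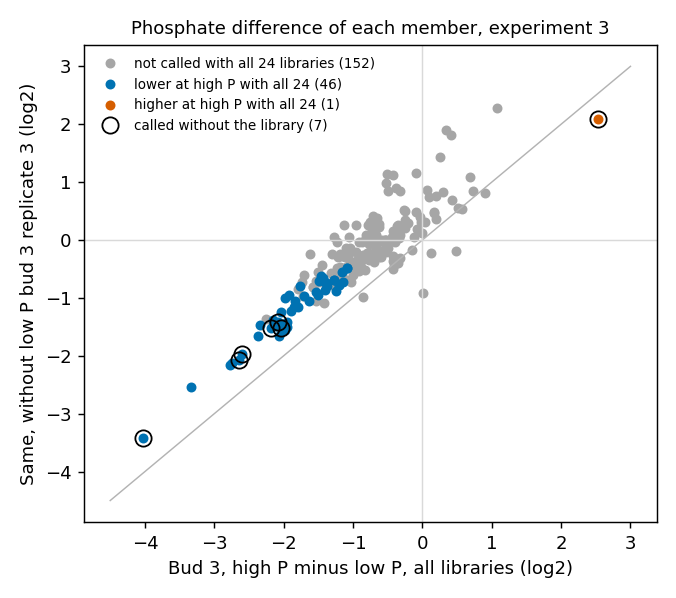
Log2 difference between high and low P in bud 3 of experiment 3 for 199 genes, with all libraries on the horizontal axis and without low P bud 3 replicate 3 on the vertical axis, with a line where both are equal. Without that library the median moved from -0.91 to -0.27 and the number of genes lower at high P from 46 to 6.

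The 6 genes lower at high P in bud 3 with and without that library were AOS, MADS-box transcription factor 26 (Scf00688g00218.1), a silicon efflux transporter homologue (Scf00057g00144.1), 2 lipid-transfer genes of scaffold Scf00241 (Scf00241g00032.1 and Scf00241g10024.1), and Scf00518g00423.1, described as a pyridoxal phosphate protein. AOS had 0, 11.7 and 5.09 in high P bud 3 and 45.3, 43.96 and 161 in low P bud 3, and differed by -4.03 ± 0.83 (adjusted p = 0.00523), or by -3.42 without replicate 3 (adjusted p = 0.0306). All low P values lay above those of high P. Scf00688g00218.1 had 52.7, 91.9 and 62.02 at high P and 269, 300 and 954 at low P, and differed by -2.65 ± 0.45, or by -2.07 without replicate 3 (adjusted p = 0.00207 and 0.00992). Scf00518g00423.1 was lower at high P in buds 3, 6 and 7, by -2.60 ± 0.42, -2.65 ± 0.42 and -1.96 ± 0.42 (adjusted p = 0.00138, 0.00042 and 0.00544), and the bud 3 difference was -1.97 without replicate 3 (adjusted p = 0.00466). Scf00241g10024.1 was lower at high P in bud 3, by -2.04 ± 0.42 (adjusted p = 0.00528, and -1.51 at adjusted p = 0.0294 without replicate 3), and higher in bud 6, at 1.61 ± 0.42 (adjusted p = 0.00911). CHSB was lower at high P by -3.34 ± 0.91 in bud 3 (adjusted p = 0.014), and by -2.53 without that library, which was not called (adjusted p = 0.109).

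In bud 6 the 2-oxoglutarate oxygenase gene Scf00188g01224.1 had 3.55, 44.3 and 19.5 at high P and 424, 471 and 68.99 at low P, with no overlap, and differed by -3.90 ± 0.87 (adjusted p = 0.00393). The ectonucleotidase Scf00378g00010.1 had 15.4, 4.55 and 18.2 and 150, 77.7 and 25.6, a difference of -2.50 ± 0.70 (adjusted p = 0.0134). PMEI-PME32 went the other way, with 110, 89.97 and 90.9 at high P and 25.3, 6.66 and 17.7 at low P, a difference of 2.65 ± 0.41 (adjusted p = 0.000332).

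Whether the response to P differed by position was tested as the difference between the P effect in bud 3, 6 or 7 and that in bud 2. No gene of the set was called in any of the 3 tests (limma), where 0.0%, 0.0133% and 0.00443% of all genes were. At an unadjusted p under 0.05 there were 69, 25 and 15 of 199, where 6.81%, 8.59% and 5.69% of all genes were, and the medians were -1.32, -0.77 and -0.68. Without low P bud 3 replicate 3 the first of these was 23 genes, where 6.48% of all genes were, with a median of -0.67. The smallest adjusted p for bud 3 was that of BAN, at 0.387 with a difference of -1.24 ± 0.28, and it was 0.329 with a difference of -0.92 without that library. With precision weights 2 genes were called in the test for bud 6 and 2 in that for bud 7.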

How the data were processed

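RNA was sequenced from axillary buds in 48 libraries, 24 in each of experiments 1 and 3. Per the labels and the study's methods, the authors used the nf-core pipeline, in a different version for each experiment, trimmed reads with Trim Galore, checked them with FastQC and quantified them with Salmon, which detected the library type itself, on the genome of *Petunia axillaris*, a parent species of the hybrid. STAR is named in the submitters' processing notes. The change of pipeline version is confounded with the experiment. So are read length and sequencing depth, which were both greater in experiment 3 by the study's methods. The deposited values are normalized signal, that is DESeq2-normalized counts per gene made by the authors, 1 table per experiment, so no count model was used on them. All sample columns were used, and the tables were never tested against each other.

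With log2(value + 1), limma 3.58.1 in R 4.3.3 fitted 1 mean per group over the 24 libraries of an experiment, for genes with a mean of at least 10, with a trended prior. Called means over 2-fold at a Benjamini-Hochberg adjusted p below 0.05. Fold changes are on the log2(value + 1) scale, which understates those of low genes. The fit was tested on simulated data. The genes of the set, the lists and the tests were chosen with earlier results of these data known. The patterns of the lists were corrected once after the tables had been seen. List genes outside the set come from tables of genes that the study found to differ, so they are no unbiased sample.

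Named genes were the 4 of highest mean in each list, the 5 described genes of largest and the 5 of smallest fall in high P bud 6 of experiment 3, the 4 described genes of largest called P effect, CKX3 and CKX5, and the 3 on either side of the threshold. Counts of 5 or fewer could be named in full. AHL20, LAC5, OPR2, GER2, PMEI-PME32, Scf00053g00315.1, Scf00057g00144.1, Scf00160g01112.1, Scf00445g00064.1, Scf00450g00216.1, Scf00518g00423.1, Scf00688g00218.1, and Scf00985g00422.1, and the groups of 13 and 6 genes, were picked after their values were seen. Same-numbered libraries deviated together in bud 2 of experiment 1 between treatments (r = 0.149, 0.198 and 0.310 across genes) and in no other pairing tested did all 3 exceed 0.1. There the replicate block left the count of called genes at 0. Alternatives were other pseudocounts, filters, normalizations, weights, sample sets and single libraries left out.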

Additional observations from a re-analysis of the deposited data

How the results depend on the processing

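The choice of genes gave 309 without the high P replicate 1 libraries, 67 at a stricter ratio to bud 2, 375 from low P alone, 241 from high P alone, 252 with medians, 150 at a mean of at least 100, and 157 to 287 with 1 replicate number left out. In experiment 1, 1 gene was called for P in bud 3 with a pseudocount of 10 and 1 in bud 6 with precision weights, and the range over single libraries left out was 0 to 1 in bud 3 and 0 in buds 2, 6 and 7. In experiment 3 the bud 2 P count of 3 became 6 without a fold threshold, 6 with quantile normalization, 5 with the replicate block, 17 with precision weights and 15 on the compared groups only, and 2 to 6 over libraries left out. The bud 7 P count of 15 became 9 with a pseudocount of 10 and 36 with weights. With weights, low P bud 3 minus bud 2 gave 8, high P bud 6 minus bud 3 gave 68, low P bud 6 minus bud 3 and bud 3 P gave 0, and the differences of the P effect in buds 6 and 7 gave 2 and 2. On the compared groups only these were 0, 6, 0 and 0 for the first 4. Apart from the bud 2 P count, the replicate block moved no count past 1.5 times, with 195 lower in high P bud 3 and 179 in low P bud 3. Outside bud 2 of experiment 1 no pairing that was checked met the limit. Different buds were compared in that check only in experiment 3.

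With 1 library left out, the counts ranged from 191 to 193 in high P bud 3, 192 to 196 in bud 6 and 191 to 196 in bud 7, from 82 to 187, 183 to 189 and 180 to 188 at low P, from 4 to 9 and 12 to 87 for bud 6 minus bud 3 at high and low P, and from 7 to 85, 18 to 30 and 3 to 13 for P in buds 3, 6 and 7. They were 0 for the differences of the P effect. The lipid-transfer gene Scf00045g01313.1 turned from its high P bud 6 minus bud 2 value to 0.53 with quantile normalization and ranged from -0.6308 to 0.005 with 1 library left out, the last without high P bud 6 replicate 1. For KTI1 (Scf00643g00055.1) in low P bud 6 minus bud 2 the range was -0.6188 to 0.0616, the last without low P bud 2 replicate 2. None of these 3 differences was called, and the cause was not tested. Of the other values of single genes, 4933 kept their call, 14 gained it and 363 lost it. With quantile normalization the share of all called genes that were lower moved from 58.8% to 48.5% in high P bud 3, from 59.0% to 46.4% in bud 6 and from 58.9% to 46.2% in bud 7, while 192, 189 and 187 genes of the set were lower. Pools are few, so differences of P effects could be resolved only where large.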

Other observations

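Some genes of the set differed in level between the 2 tables, which were normalized separately and not tested against each other. BAG6 (Scf01254g00022.1) had 268, 140 and 843 normalized counts in high P bud 2 of experiment 1 and 47885, 40092 and 57536 in high P bud 2 of experiment 3, with 280482, 98349 and 139628 in low P bud 2 of experiment 3. Scf00160g01112.1, with no known product, went the other way, as given above. These genes were picked after their values were seen.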
